A study of Mus musculus with 6 samples.

Results

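Complex I (NADH:ubiquinone oxidoreductase) is the entry point of the mitochondrial respiratory chain. It takes electrons from NADH, passes them along iron-sulfur clusters in its matrix arm to ubiquinone, and uses the energy to pump protons through its membrane arm. Some of its subunits are encoded by mitochondrial DNA and the others by nuclear genes, and assembly factors build the enzyme without staying in it. Neurons draw most of their ATP from this chain, and complex I is also a known site of superoxide formation. The genes described here were chosen by name alone, as symbols that begin with Ndufa, Ndufb, Ndufc, Ndufs, Ndufv, Ndufab or Ndufaf and a number. Of 16060 rows in the deposited table, 45 met this rule. They were 36 subunits, 7 Ndufaf assembly factors, and Ndufa4 and Ndufa4l2, which carry the name but are not counted here as subunits of complex I. Ndufa4 is now assigned to complex IV, and Ndufa4l2 is its paralog. The subunits were divided into 7 of the catalytic core, 10 accessory subunits of the matrix arm and 19 of the membrane arm. All 45 passed the filter on low values.

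Hippocampal RNA came from 3 mice labelled Control, which received saline, and 3 labelled MA, which received methamphetamine (MA), with 1 library per mouse. The animals were adult male C57BL/6 mice. MA was injected intraperitoneally at a dose raised each week over 3 weeks, and the brains were taken right after behavioral tests. No genotype or other agent separated the groups, and behavioral testing was common to both. The table is named RPKM, a read count scaled by gene length and library size, yet its values are logarithmic and are read here as log2 of RPKM plus 1. Read totals are not part of it, so the depth is unknown. The libraries had been brought to a common distribution, and over the 8030 ranks from the highest to the median the values at a given rank differed by at most 0.0285 between libraries. A difference between libraries is therefore a shift of a gene among the other genes of its library. A fold change is given as log2, MA minus Control, from limma, and called means an adjusted p under 0.05 after Benjamini-Hochberg adjustment over all 13321 genes tested.

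The library MA replicate 3 stood apart. It listed no gene at 0, against 259 to 437 in each of the others, and its mean Pearson correlation with the other MA libraries across genes was 0.978, against 0.984 to 0.993 for the rest within their groups. Results are therefore given with and without it. All 6 hippocampal neuron markers (Prox1, C1ql2, Neurod6, Zbtb20, Spink8, Wfs1) were present in every library, and none of the 9 marker lists held a gene at 0 in any library. The 7 choroid plexus markers summed to 64.5 to 419.9 in the Control libraries and 1775 to 5079 in the MA libraries on the back-transformed scale, with 4 called higher. The 5 red blood cell markers summed to 1599 to 2024 and 3319 to 4378, with 3 called higher. Of all tested genes, 0.263% were called in either direction. No marker was called in the lists for neurons, hippocampal neurons, astrocytes, oligodendrocytes, microglia, endothelium and thalamus. By the fold change alone, all 6 hippocampal neuron markers were lower in MA, 2 with an unadjusted p under 0.05 from limma, beside 10.4% of all tested genes. All 6 thalamus markers were higher, none with such a p, and all 5 endothelial markers were higher, 2 with such a p. The neuron, astrocyte and thalamus sums lay below every Control library in MA replicate 3 and above every one in MA replicates 1 and 2. In MA replicate 3 they were 1936.5, 813 and 45.3, beside lowest Control sums of 2205, 940.3 and 46.2. No other list split in this way. The part of these markers in the complex I values was not tested. In bulk tissue, fewer cells of a type and less RNA per cell cannot be told apart.

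Nuclear respiratory factor 1 (NRF1) is a transcription factor known to bind promoters of many respiratory chain genes and to couple nuclear genes to mitochondrial biogenesis. RefSeq windows on GRCm38.p6, from 250 bases before to 50 after the start of a gene, were found for 39 of the 45 members. The word used for the NRF1 site, GCGCA and GCGC with any 1 letter between them, was searched on both strands, like the other words, and was in 8 of 34 windows of the subunits (23.5%) and 2 of 6 windows of the assembly factors (33.3%). It was in 1203 of 13231 windows of all tested genes with a window (9.1%). Both windows of Ndufa5 held the same site. By gene, the NRF1 word was in 7 of 32 subunits (21.9%), beside 10.9% of all tested genes with a window. The word ATGGCGG, for YY1, another factor linked to mitochondrial genes, was in 9 of the 34 subunit windows (26.5%) and in 7.3% of all windows. It began after the start of the gene in Ndufb5, Ndufs7, Ndufa9, Ndufs6 and Ndufs4, and both windows of Ndufa7 held the same site. The word CCGGAAG, for the ETS family that includes GABP, was in 11.8% of the subunit windows and 15.3% of all. A word in a window is a description and not evidence that a factor binds there. The stretches below are shown because they carry the NRF1 word, in capitals, in genes of both arms and in an assembly factor. Each is 5′ to 3′ on the strand of its gene, with the word before the RefSeq start or starts. By the gene limits of GENCODE, the Ndufa5 stretch and that of Ndufb4 from 37654371 lie inside the gene. The Ndufb4 stretch from 37654428 crosses the GENCODE start.
Ndufa5, chr6:24527697-24527726, minus strand: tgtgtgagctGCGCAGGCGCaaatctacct
Ndufb4, chr16:37654540-37654569, minus strand: gagaagcagtGCGCACGCGCagaatacgcg
Ndufb4, chr16:37654428-37654457, minus strand: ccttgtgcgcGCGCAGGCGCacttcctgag
Ndufb4, chr16:37654371-37654400, minus strand: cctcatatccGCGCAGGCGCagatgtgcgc
Ndufs5, chr4:123718265-123718294, minus strand: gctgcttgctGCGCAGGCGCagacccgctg
Ndufa11, chr17:56717692-56717721, plus strand: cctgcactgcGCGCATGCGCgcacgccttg
Ndufaf4, chr4:24897960-24897989, plus strand: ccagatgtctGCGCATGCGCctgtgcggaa
Ndufb4 holds 3 such words in its window. Among the 32 subunits with a window, the 7 with the NRF1 word had a median fold change of -0.043 and the 25 without it a median of -0.032. Without MA replicate 3 these medians were -0.15 and -0.11. No test was made between them.

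Complex I as a whole showed small differences between the groups, and no member passed the adjusted threshold. None of the 45 members was called by limma, where 35 of 13321 genes (0.263%) were called in all. At an unadjusted p under 0.05 there were 4 of 45 members, beside 10.4% of all tested genes, with 3 lower in MA, beside 5.46%, and 1 higher, beside 4.99%. The same 4 genes were those whose MA libraries lay wholly on one side of the Control libraries, a state found in 17.5% of all tested genes (10.2% with MA below Control and 7.32% with MA above). Both counts were near or under the background. The median fold change of the 36 subunits was -0.040, with 25 lower, beside a median of -0.010 and 52.7% lower over all tested genes. For 42 of the 45 members the 95% interval of the fold change lay within 0.5 on either side of 0, and this was so for 67.3% of all tested genes. For the members, these libraries thus put bounds on the size of a difference, the widest being -0.63 for Ndufc1 and 0.60 for Ndufaf6.

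**Figure D1:**
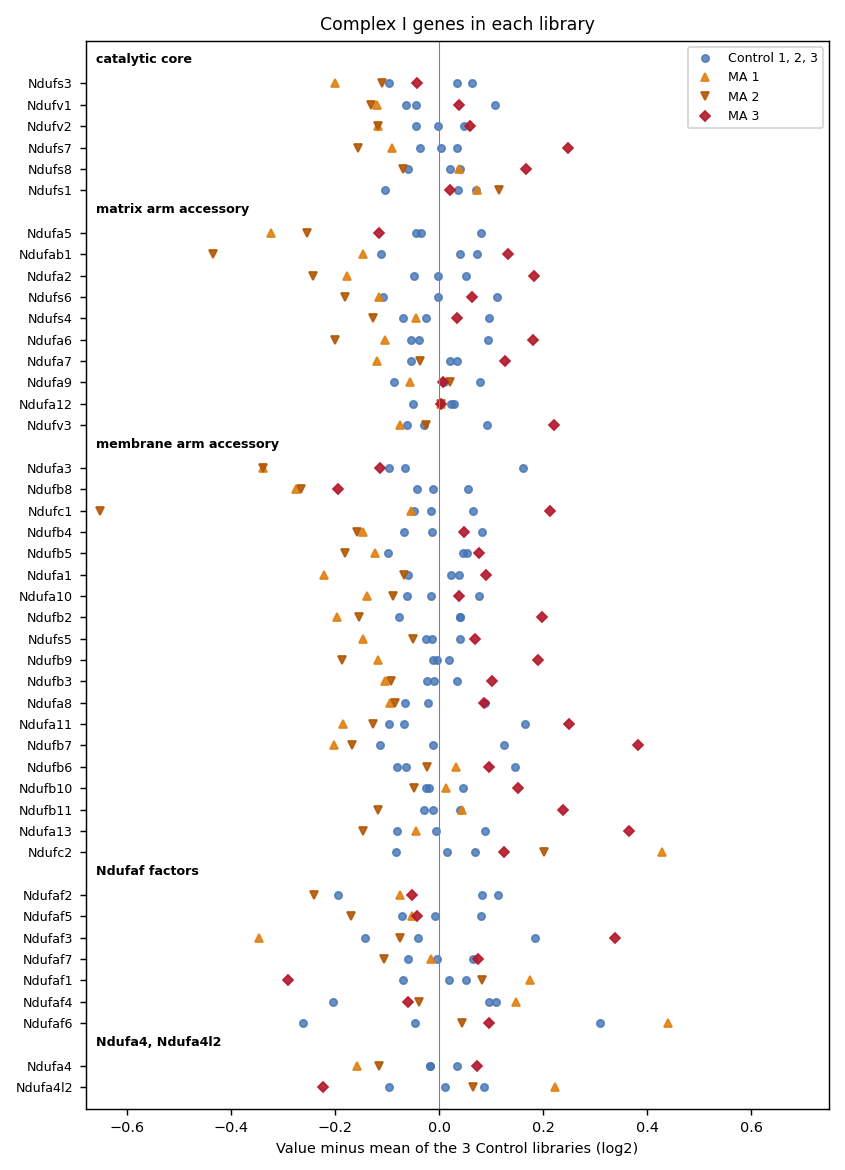
Each row is a complex I gene, for 44 of the 45 members, and each point is 1 library, placed by its log2 value minus the mean of the 3 Control libraries. Circles are Control, triangles MA replicates 1 and 2, and diamonds MA replicate 3. In most subunit rows the diamond lies to the right of both triangles, which holds for 32 of the 36 subunits and for 4 of the 7 assembly factors.

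The nuclear-encoded catalytic core takes up NADH and holds the iron-sulfur chain. None of its 7 genes was called, the smallest adjusted p from limma being 0.679, and their intervals lay between -0.31 and 0.28. Ndufv1 binds the flavin that accepts electrons from NADH. It read 6.97, 7.13 and 6.95 in the Control libraries and 6.90, 6.89 and 7.06 in the MA libraries. Ndufv2, which holds an iron-sulfur cluster next to it, read 7.17, 7.12 and 7.08 in Control and 7.01, 7.01 and 7.18 in MA. In both genes MA replicates 1 and 2 lay under all Control libraries and MA replicate 3 lay among them or just above. Ndufs1, the largest subunit and a carrier of several clusters, read 5.45, 5.63 and 5.59 in Control and 5.63, 5.67 and 5.58 in MA. It had the lowest level of the core genes, and its groups overlapped with a fold change of 0.069 (standard error 0.081). Ndufs1 was 1 of 4 subunits in which MA replicate 3 was not above the other MA libraries.

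Ndufs7 holds the cluster next to the ubiquinone site. It read 7.77, 7.81 and 7.84 in Control and 7.72, 7.65 and 8.05 in MA. The MA group straddled the whole Control group, with MA replicate 3 above every Control library and MA replicates 1 and 2 below every one, and both group means were 7.81. Without MA replicate 3 the fold change was -0.12 and was not called (adjusted p = 0.250 from limma). Ndufs3, a scaffold of the arm that meets ubiquinone, read 7.06, 7.09 and 6.93 in Control and 6.82, 6.91 and 6.98 in MA. Its fold change of -0.12 was the largest in size of the core, and its groups overlapped. Ndufs8, which holds the clusters near the end of the chain, read 6.40, 6.48 and 6.5 in Control and 6.5, 6.39 and 6.63 in MA. Reads of Ndufs3 are uncertain, since an annotated copy shares at least 95% of bases over at least 50% of a coding transcript.

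Accessory subunits of the matrix arm surround the core and stabilize it. Of the 10, 8 were lower in MA by the fold change alone and 1, Ndufa5, had an unadjusted p under 0.05. Over all tested genes these shares were 52.7% and 10.4%. Ndufa5, which sits on the arm that meets ubiquinone, has 1032 exonic bases on chromosome 6 of GRCm38, from 24518666 to 24528013. It read 9.44, 9.55 and 9.43 in Control and 9.15, 9.22 and 9.35 in MA. Every MA library lay below every Control library, with means of 9.47 ± 0.07 and 9.24 ± 0.11 (SD, n = 3 each). By limma the difference was -0.23 (standard error 0.082), or -14.8%, with an adjusted p of 0.402. Ndufab1, the mitochondrial acyl carrier protein, read 8.24, 8.20 and 8.05 in Control and 8.02, 7.73 and 8.30 in MA, so that its MA libraries spread over more than the whole Control range. Its value is uncertain because 2 annotated copies share its sequence. At the other extreme, Ndufa12 read 8.63 in all 3 MA libraries, where it stood at ranks 200 to 202 of the table, and 8.66, 8.65 and 8.58 in Control. Its fold change of 0.0025 had an interval of -0.15 to 0.16, and it also has an annotated copy.

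Accessory subunits of the membrane arm hold the proton-pumping subunits in place. Of the 19, 13 were lower and 6 higher in MA by the fold change alone, beside 52.7% lower over all tested genes. An unadjusted p under 0.05 was reached by 3, Ndufa3, Ndufb8 and Ndufc2, beside 10.4% of all tested genes. Ndufb8, a subunit often used on immunoblots as a sign of assembled complex I, lies on chromosome 19 from 44548572 to 44555440. It read 8.69, 8.79 and 8.72 in Control and 8.46, 8.47 and 8.54 in MA. The groups were apart by more than their spread, with means of 8.73 ± 0.05 and 8.49 ± 0.04 (SD, n = 3 each). The fold change of -0.25 (standard error 0.069, adjusted p = 0.290 from limma), or -15.6%, had the smallest p of all 45 members. Of its exonic bases, 4.3% are shared with another annotated gene, Gm20538, on the same strand.

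Ndufa3, a small subunit of the membrane arm, lies on chromosome 7 from 3617373 to 3620327. It read 9.60, 9.83 and 9.57 in Control and 9.33, 9.33 and 9.55 in MA. MA replicate 3 lay just under the lowest Control library. The difference of -0.26 (standard error 0.10) amounted to -16.7% and had an adjusted p of 0.440 from limma. Ndufc2, a membrane arm subunit known to be needed for assembly of the complex, was the exception in direction. On chromosome 7 from 97400003 to 97407802, it read 7.62, 7.72 and 7.77 in Control and 8.13, 7.90 and 7.83 in MA. All MA libraries were above all Control libraries, with a fold change of 0.25 (standard error 0.098, adjusted p = 0.440 from limma), or 19.0%. Here MA replicate 3 was the lowest of the MA libraries, while it was the highest of them in Ndufb8, Ndufa3 and Ndufa5. For any gene with separate groups a two-sided exact permutation test gives 0.1, which is the lowest p that 3 libraries against 3 allow.

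**Figure D2:**
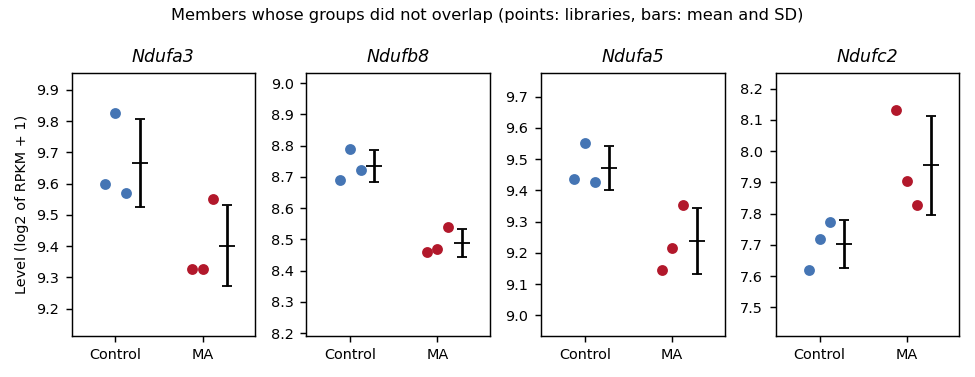
Levels in log2 of RPKM plus 1 of the 4 members whose groups did not overlap, with 1 point per library and the mean and SD beside each group. The vertical axes have the same span but different positions. Ndufa3, Ndufb8 and Ndufa5 lie lower in the MA libraries and Ndufc2 higher.

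The other membrane arm genes overlapped between the groups. The widest spread was in Ndufc1, which read 8.29, 8.18 and 8.21 in Control and 8.17, 7.57 and 8.44 in MA. Ndufb7 read 7.63, 7.87 and 7.73 in Control and 7.54, 7.58 and 8.13 in MA, so MA replicate 3 exceeded the other MA libraries by 0.57. The level of Ndufa3 was the highest of all subunits and that of Ndufa11 the lowest, with means over the 6 libraries of 9.53 and 4.97. Ndufa11 read 4.92, 5.15 and 4.89 in Control and 4.80, 4.86 and 5.23 in MA. Several membrane arm genes share exonic bases with a gene on the other strand, among them Ndufb6 with Smim27 (39.0% of its bases), Ndufa13 with Tssk6 (30%), Ndufb11 with Rbm10 (12.9%) and Ndufb5 with Mrpl47 (12.3%). The sources used here do not state whether counting used strand, so their values may include reads of those partners. Reads of Ndufb11, Ndufs5 and, in the matrix arm, Ndufs6 could also be split with an annotated copy of each.

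The Ndufaf factors bind assembly intermediates and are absent from the finished enzyme. Of the 7 in the table, 5 were lower and 2 higher in MA by the fold change alone, beside 52.7% lower over all tested genes. Their median was -0.016, and none had an unadjusted p under 0.05. Ndufaf1, which works with Ecsit, Acad9 and Tmem126b on the membrane arm, read 3.97, 3.94 and 3.85 in Control and 4.10, 4.0 and 3.63 in MA. MA replicate 3 was the lowest of the 6 libraries there, the reverse of its place in most subunits. Ndufaf2, a paralog of Ndufa12 that leaves when the last module joins, read 5.55, 5.86 and 5.83 in Control and 5.67, 5.51 and 5.70 in MA. It is uncertain because 65.6% of its exonic bases overlap B230220B15Rik on the other strand. Ndufaf3 and Ndufaf4 act together on the ubiquinone-binding arm. Ndufaf3 read 4.83, 5.15 and 4.93 in Control and 4.62, 4.89 and 5.31 in MA, and Ndufaf4 read 4.07, 4.06 and 3.76 in Control and 4.11, 3.93 and 3.91 in MA. These partners did not share a pattern, since MA replicate 3 was the highest library for Ndufaf3 and the lowest MA library for Ndufaf4.

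Ndufaf5 hydroxylates an arginine of Ndufs7, and Ndufaf7 is a methyltransferase of the mitochondrial matrix. Ndufaf5 read 4.66, 4.72 and 4.81 in Control and 4.68, 4.56 and 4.69 in MA. Ndufaf7 read 3.68, 3.81 and 3.74 in Control and 3.73, 3.64 and 3.82 in MA. Both pairs of groups overlapped, with fold changes of -0.088 (standard error 0.084) and -0.016 (standard error 0.090). Ndufaf6, an early assembly factor, had a fold change of 0.19 (standard error 0.17), which was 0.062 without Control replicate 1 and 0.069 without MA replicate 1. It read 3.14, 3.36 and 3.72 in Control and 3.85, 3.45 and 3.50 in MA. Ndufaf8 is not analysed here.

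The pair that carries the name without being counted among the subunits differed in level. Ndufa4, of complex IV, read 9.65, 9.60 and 9.60 in Control and 9.46, 9.50 and 9.69 in MA. Its paralog Ndufa4l2, known as a gene induced by hypoxia, read 2.31, 2.13 and 2.24 in Control and 2.45, 2.29 and 2.0 in MA. The groups overlapped in both, with fold changes of -0.067 and 0.021. MA replicate 3 was the highest library for Ndufa4, as in most subunits, and the lowest for Ndufa4l2.

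Set beside each other, subunits and assembly factors differed in level, and their median fold changes were close. In level, which RPKM gives per length, the median subunit stood at 7.78 and the median Ndufaf factor at 3.97 on the log2 scale. The mean over the subunits minus the mean over the factors was 3.41, 3.35 and 3.30 in the Control libraries and 3.21, 3.29 and 3.45 in the MA libraries. The group means of this difference were 3.35 ± 0.06 and 3.32 ± 0.12 (SD, n = 3 each), so the groups differed by less than the spread between the MA libraries. The median fold changes were -0.040 and -0.016, a difference of -0.024. This difference was 0.052 without MA replicate 1, 0.0058 without MA replicate 2 and -0.063 without MA replicate 3, so its sign rested on single libraries.

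Other genes known to act in complex I assembly were taken from a fixed list of 14, of which 12 were in the table and tested. None was called by limma. By the fold change alone 6 were lower and 6 higher, with a median of 0.015. At an unadjusted p under 0.05 there was 1 in each direction, beside 5.46% of all tested genes lower and 4.99% higher. The groups were apart in 1 gene with MA below Control and 1 with MA above, beside 10.2% and 7.32%. Tmem126b, a membrane arm factor that works with Ndufaf1, read 3.97, 3.90 and 3.95 in Control and 3.66, 3.72 and 3.72 in MA. Its groups were apart, with a fold change of -0.24 (standard error 0.080, adjusted p = 0.362 from limma). Foxred1, a later assembly factor, read 3.46, 3.49 and 3.42 in Control and 3.60, 3.84 and 3.79 in MA. Its groups were apart the other way, with a fold change of 0.29 (standard error 0.097, adjusted p = 0.370 from limma). The partners of Ndufaf1 thus gave values in both directions, Ecsit at -0.21 and Acad9 at 0.21, with overlapping groups in each.

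Within the MA group the level of the subunits differed by library. Their mean level was 7.68, 7.76 and 7.68 in the Control libraries and 7.61, 7.57 and 7.82 in the MA libraries. MA replicates 1 and 2 were the lowest of the 6 and MA replicate 3 the highest. Summed over the 36 subunits on the back-transformed scale, the level was 8787 and 8652 in MA replicates 1 and 2, 9403 to 10038 in Control and 10271 in MA replicate 3. MA replicate 3 exceeded both other MA libraries in 32 of 36 subunits, beside 41.0% of all tested genes, and was the highest of the 6 libraries in 21, beside 25.6%. The exceptions were Ndufs1, Ndufa9, Ndufa12 and Ndufc2. The median excess of MA replicate 3 over the mean of the other MA libraries was 0.20 for the subunits, 0.068 for the Ndufaf factors and -0.0053 for all tested genes.

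Without MA replicate 3 more subunits had a negative fold change. Their median fold change went from -0.040 to -0.12, while that of all tested genes was -0.0080, and 32 of 36 were lower in MA by the fold change alone, beside 51.5% of all tested genes. The Ndufaf median also fell, from -0.016 to -0.061, with 4 of the 7 factors lower without MA replicate 3. That of the other assembly genes went from 0.015 to -0.055. There were 7 subunits whose fold change turned from above to below 0, among them Ndufs8, Ndufv3, Ndufb7, Ndufb10, Ndufb11 and Ndufa13. The 4 subunits that stayed higher were Ndufs1, Ndufa12, Ndufb6 and Ndufc2. Still none of the 45 members was called by limma, where 257 genes (1.93%) were called in all. The smallest adjusted p among the members was 0.0664, for Ndufb8. An unadjusted p under 0.05 was reached by 9 members, beside 23.3% of all tested genes, with 8 lower and 1 higher, beside 11.4% and 11.9%. With all 6 libraries and limma's sample quality weights, 2 members were called lower in MA, Ndufb8 and Ndufa5 (adjusted p = 0.0364 and 0.0471), beside 4.4% of all tested genes. With those weights the subunit median was -0.11, and an unadjusted p under 0.05 was reached by 10 members, beside 26.3% of all tested genes. The 8 lower members without MA replicate 3 were Ndufb8, Ndufa3, Ndufa5, Ndufa2, Ndufb2, Ndufb9, Ndufab1 and Ndufa4. The median without MA replicate 1 was 0.0034 and without MA replicate 2 it was 0.0013, so the sign of the subunit median rested on single libraries.

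**Figure D3:**
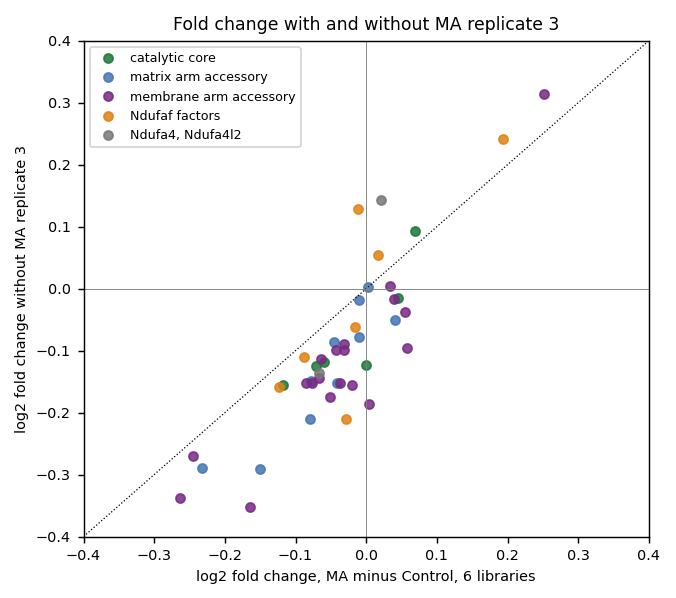
Each point is 1 complex I gene, for 44 of the 45 members, with its log2 fold change from all 6 libraries on the horizontal axis and that from the fit without MA replicate 3 on the vertical axis. The dotted line marks equal values. Most subunits lie below the line, with medians of -0.040 and -0.12, while the Ndufaf factors lie on both sides, with medians of -0.016 and -0.061.

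The excess of MA replicate 3 moved with gene length and GC content over the whole table, and the cause was not tested. In 371 tested genes with up to 1000 exonic bases the median excess was 0.24, in 1403 genes over 1000 and up to 2000 bases it was 0.21, and in 2494 genes over 8000 bases it was -0.19. It was -0.12 in 3218 genes with a GC content up to 45% and 0.13 in 3221 genes over 55%. Complex I subunits have short transcripts, with a median exonic length of 1644 bases beside 4504 for all tested genes, and a median GC content of 51.4% beside 50.1%. After each library was corrected for length and GC content, an alternative added after the data were seen, the median excess in the subunits was 0.045 and MA replicate 3 exceeded both other MA libraries in 19 of 36, beside 40.8% of all genes in that fit. The median fold change of the subunits was then -0.012, and -0.050 without MA replicate 3. Ndufa3, Ndufb8 and Ndufa5 kept their direction and an unadjusted p under 0.05, beside 11.2% of all genes in that fit, with fold changes of -0.26, -0.22 and -0.22. Ndufc2 stood at 0.29. None was called (adjusted p from 0.266 to 0.508 by limma). Without MA replicate 3 as well, 8 members had an unadjusted p under 0.05, beside 22.8% of all genes.

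**Figure D4:**
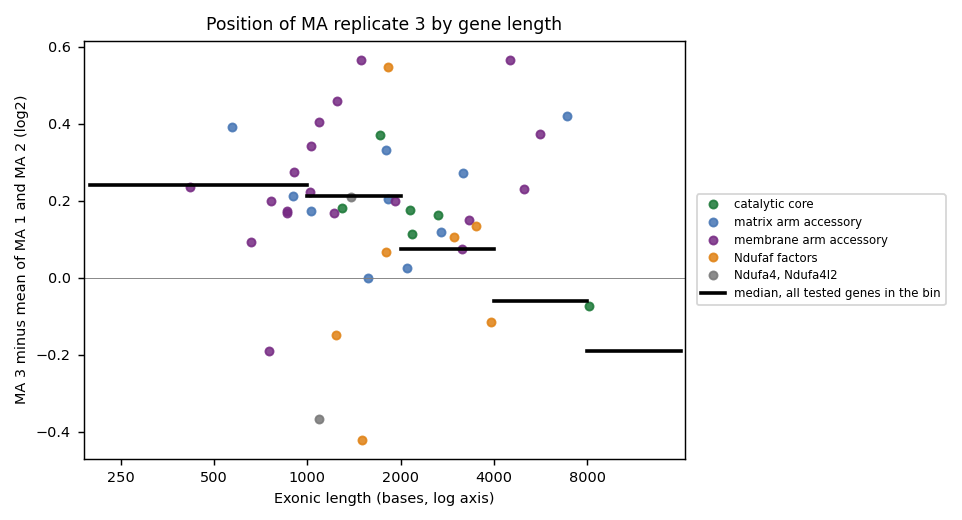
The horizontal axis is exonic length in bases on a log axis, and the vertical axis is the log2 value of MA replicate 3 minus the mean of MA replicates 1 and 2. Points are complex I genes, 44 of the 45 members, and black bars are medians of all tested genes in a length bin, where the first bin has no lower bound and the last no upper bound. The bars run from 0.24 in the shortest bin to -0.19 in the longest, and most subunits lie above 0.

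Before the length and GC correction, MA replicate 3 also lay high in other nuclear genes of the mitochondrion. Among 39 nuclear genes taken for complexes II to V, which carry electrons onward and make ATP, it exceeded both other MA libraries in 31. Every symbol that begins with Atp5 was taken by name alone, so this set may hold genes that are not subunits. Among 79 tested genes with a symbol of mitochondrial ribosomal proteins, which translate the subunits encoded by mitochondrial DNA, it did so in 62. Their median fold changes were -0.015 and -0.017 with all libraries and -0.069 and -0.079 without MA replicate 3, beside -0.040 and -0.12 for the complex I subunits. After the length and GC correction the counts were 14 of 39 and 46 of 79, beside 19 of 36 for the complex I subunits and 40.8% of all genes, so that complexes II to V no longer lay above the background. None of these genes was called by limma with all 6 libraries. Without MA replicate 3, 2 of the 79 were called lower by limma, beside 257 of 13321 genes (1.93%) called in all. They were Mrps36 and the pseudogene Mrpl23-ps1 (adjusted p = 0.0466 and 0.0485 from limma), both named after their values were seen. The 79 were also taken by symbol alone, so this set may hold genes that are not ribosomal proteins. Whether complex I differed from these groups was not tested.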

How the data were processed

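Hippocampal RNA of 3 Control and 3 MA mice was analysed. The study's methods name Hisat2 for alignment, featureCounts for counting and FPKM as the unit, whereas the submitters' processing notes name Bowtie 0.12.2 with mm8 and mm9. The authors deposited 1 table named RPKM whose values are on a log2 scale, as read here, with an offset of 1 inferred. The log transform and the common distribution of the libraries are not described. Depth is unknown, and 3 libraries a group limit the precision.

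Genes that reached 0.5 after back-transformation in 3 or more libraries were tested with limma 3.58.1 in R 4.3.3 (trend, no covariate, two-sided, Benjamini-Hochberg over 13321 genes). DESeq2, which the authors used, needs counts. In 10 simulated tables, where 200 of 13321 genes had a log2 change of 1, the median share recovered was 75.8% and 5.31% of calls were false. Values there were drawn separately for each gene, with no library that stood apart. The members had fold changes from -0.26 to 0.25, so these shares do not give the power or error for them.

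The members and lists were chosen with earlier results of these data known. Library values were given for the core subunits (the values of 1 member are not reported here, though it is in all counts and medians), all Ndufaf factors, members with an unadjusted p under 0.05 or groups apart, and the subunits of highest and lowest level. Other assembly genes were named by the same p and group criteria. Further genes (such as Ndufc1, Ndufb7, Ndufa12, Ndufab1, Ndufa4, Ndufa4l2, Ecsit and Acad9) were chosen after their values were seen. The other assembly genes were Acad9, Ecsit, Tmem126b, Timmdc1, Tmem186, Coa1, Foxred1, Nubpl, Tmem70, Dmac1, Aifm1, Chchd4, Lyrm2 and Sfxn4. Lengths, GC content and overlaps are from GENCODE M21 (GRCm38), and copies from blastn 2.17.0. Since the authors' build is unclear, coordinates give location only. No member shared its 6 values or its identifier with another row.

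Alternatives were a pseudocount of 0.1, no filter, median centring, sample quality weights, the replicate number as a block and leaving out each library, with a length and GC correction (lowess, span 0.3, 13302 genes) added after the data were seen.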

Additional observations from a re-analysis of the deposited data

How the results depend on the processing

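The count of 0 called members held under every alternative but limma's sample quality weights, which called 2, Ndufb8 (adjusted p = 0.0364) and Ndufa5 (adjusted p = 0.0471), both lower in MA, among 586 genes (4.4%) in all. With those weights 10 members had an unadjusted p under 0.05, beside 26.3% of all tested genes, and the median fold changes were -0.11 for the subunits and -0.085 for the Ndufaf factors. Of all tested genes, 3 were called with no filter, and from 0 to 257 when 1 library was left out, against 35. The number of members with an unadjusted p under 0.05, 4 with all libraries, ranged from 1 to 9 when 1 library was left out, the highest being without MA replicate 3, where the share of all tested genes was 23.3% against 6.22% to 8.69% when any of the others was left out. It was 1 when Control replicate 2 or either of MA replicates 1 and 2 was left out, and 2 when Control replicate 1 was. The median of the other assembly genes ranged from -0.055 to 0.083 in those fits. The length and GC correction without MA replicate 3 gave 8 such members, beside 22.8% of all genes, and 240 called genes. Median centring and a pseudocount of 0.1 kept the medians of subunits, factors and other assembly genes within the spread between libraries. Of 21 named genes, 13 kept the direction of their fold change in all 14 alternatives. Leaving out the filter or adding the replicate block gave the same fold changes as the fits without that step, so these alternatives could not change a direction.

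As to pairing by replicate number, the correlation across genes between deviations that share a number was -0.197, -0.242 and -0.337. Of 6 libraries, 0 correlated best with its own number, so these values showed no pairing by number. Whether libraries of the same number shared a batch was not tested. With the replicate block 15 genes were called, none of them a member, and 1 member, Ndufb8, had an unadjusted p under 0.05, beside 6.32% of all tested genes. With the block and the length and GC correction 8 genes were called and 1 member had such a p, beside 7.03%. Leaving out a library leaves 2 in its group. The depth behind each value is unknown, so counting error cannot be separated from differences between mice.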
